A study of Mus musculus with 12 samples.

Results

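The Slc25 mitochondrial carrier family was described here across 4 mouse fat depots, as 44 of the 47729 genes in the deposited RNA-seq tables. The members are the genes whose symbol is Slc25a followed by a number, 47 in all, of which 3 (Slc25a1, Slc25a20 and Slc25a44) were left out of the family count and are given with the other mitochondrial transport genes. The 12 libraries came from interscapular brown adipose tissue (BAT) and from inguinal (IWAT), epididymal (EWAT) and retroperitoneal (RWAT) white adipose tissue, with 3 libraries per depot. All 4 groups were fat of male wild-type C57BL/6J mice aged 6 to 10 weeks on a standard low-fat diet, and in all 4 the tissue had been denervated by surgery. No innervated fat was analysed here, so depot is the factor compared and the effect of denervation is not measured. Whether the triplicates of a depot are separate animals is not stated in the labels, and p-values therefore speak to the variation among these libraries, part of which may be technical.

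Members of this family are proteins of the inner mitochondrial membrane that exchange metabolites, nucleotides, cofactors or ions between the cytosol and the matrix. The ADP/ATP carriers and the phosphate carrier supply the ATP synthase, other members move amino acids, di- and tricarboxylates and cofactors, and a few act elsewhere, such as Slc25a17 in peroxisomes and Slc25a46 on the outer membrane. Brown fat is rich in mitochondria and burns fuel for heat through the uncoupling protein Ucp1, itself a carrier of this fold that bears another symbol, while white fat mainly stores lipid.

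Libraries held 15699912 to 25633413 estimated counts, and the libraries of a depot differed in composition, which bears on each comparison below. The summed TPM (a level per transcript length) of 10 adipocyte markers was 15849, 28897 and 14039.9 in BAT, 28251, 31516 and 12901 in IWAT, 7493, 10332 and 6283 in EWAT, and 27463, 6655 and 4845 in RWAT. That of 19 macrophage markers was 513, 1169.6 and 6445 in BAT, 1298, 3072 and 8957 in IWAT, 7164, 10551 and 13335 in EWAT, and 1939, 7707 and 6673 in RWAT. RWAT 1, IWAT 1 and IWAT 2 stood apart from the other white libraries, with more adipocyte and less macrophage marker RNA. The sum of 18 skeletal muscle markers was 7197, 8379 and 1823 in BAT, 63.3, 52.2 and 37.5 in IWAT, 22.9, 24.2 and 16.8 in EWAT, and 99, 46.3 and 11505 in RWAT, so that it was high in the BAT libraries and in RWAT 3. All 18 reached 1 TPM in at least 1 library of BAT and of RWAT, 7 of 18 did in IWAT and 9 of 18 in EWAT. Germ cell markers, a list of 15 added after the data were seen, summed to 1223 TPM in EWAT 2 and 400.4 TPM in EWAT 3, against 12.1 to 49.7 TPM in the other 10 libraries. Markers of epididymis, a second added list of 15, summed to 1626 TPM in EWAT 1 and to at most 12.6 TPM elsewhere. Ucp1 itself, the defining brown fat gene, was 1191, 21.7 and 563 TPM in BAT, 27.2, 93.6 and 22.9 in IWAT, 0, 0.08 and 0.06 in EWAT, and 10.3, 1.36 and 0.16 in RWAT. By TPM, BAT 2 thus lay below all 3 IWAT libraries, unlike BAT 1 and BAT 3, though only narrowly below IWAT 3. In bulk RNA, fewer cells of a type and less RNA per cell cannot be told apart.

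Family members differed more in single genes than in their sum. Summed over the 44 members, the TPM was 1996, 1922 and 1661 in BAT, 1963, 1804 and 1526 in IWAT, 1209, 1366 and 1511 in EWAT, and 1892, 1348 and 1273 in RWAT. The BAT and IWAT sums and that of RWAT 1 were the higher ones, and the depots overlapped. The summed TPM of 65 nuclear oxidative phosphorylation genes was 6.93 to 16.8 times the carrier sum, at 16.8, 10.1 and 12.3 times in BAT, 11.3, 11.8 and 7.95 times in IWAT, 6.93, 7.47 and 7.01 times in EWAT, and 9.71, 7.45 and 8.01 times in RWAT. Of the members, 5 had a mean of at least 100 TPM over the 12 libraries, namely Slc25a5 (300.9 TPM), Slc25a3 (281 TPM), Slc25a10 (144 TPM), Slc25a4 (141 TPM) and Slc25a39 (132 TPM). A further 17 members averaged 10 to 100 TPM, 13 averaged 1 to 10 TPM and 9 were below 1 TPM. Slc25a3, Slc25a4 and Slc25a5 alone made up 40.6% to 45.1% of the family TPM in BAT and 40.1% to 51.4% in the white libraries.

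**Figure D1:**
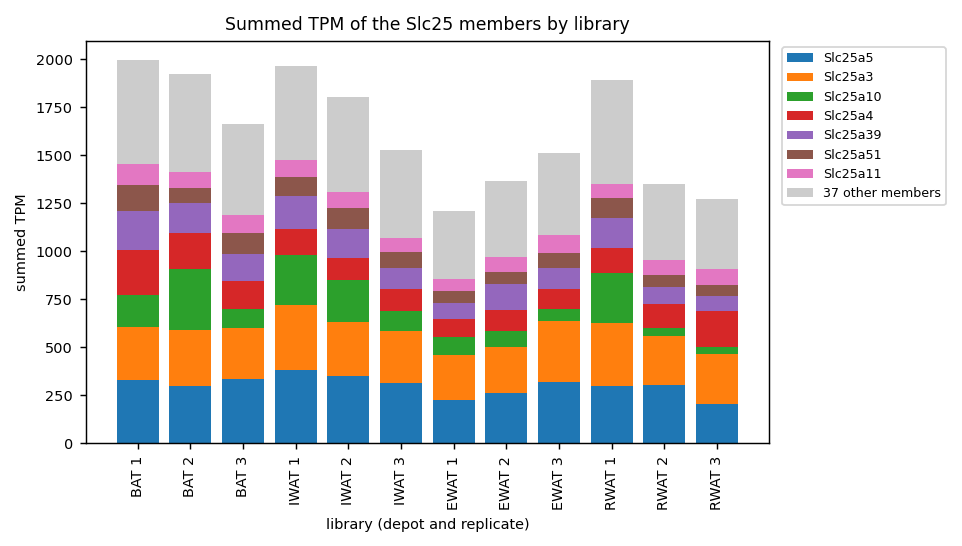
Stacked bars of the summed TPM of the Slc25 members (vertical axis) in each of the 12 libraries (horizontal axis, depot and replicate), with the 7 members of highest mean TPM in colour and the 37 other members in light grey. Slc25a5 and Slc25a3 form the lower part of every bar, and the Slc25a10 segment varies between 33.5 TPM in RWAT 3 and 317 TPM in BAT 2.

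For comparisons within a gene, levels are given as scaled CPM, which are library-size-normalised counts after TMM scaling. Of the 44 members, 41 had enough counts to be tested; Slc25a21, Slc25a41 and Slc25a54 did not. Slc25a31 and Slc25a2 were highest in EWAT 2, and Slc25a31 was near 0 in most libraries. No member was called in any of the 8 depot comparisons by edgeR's quasi-likelihood test, with the threshold of 0.05 set on p-values adjusted (Benjamini-Hochberg) across the 19154 genes with enough counts. The share of all tested genes called in either direction was also small: 0.0992% for BAT over the mean of the white depots, 0.783% for BAT over EWAT, 0.0104% for BAT over IWAT, 0.0574% for BAT over RWAT, 0.141% for IWAT over the mean of EWAT and RWAT, 0.345% for IWAT over EWAT, 0% for IWAT over RWAT and 0.0418% for EWAT over RWAT. The smallest adjusted p of a member was 0.117 for BAT over white and 0.0638 for BAT over EWAT. limma-voom called 0 members in each comparison too, whereas DESeq2 called 6 for BAT over white (4.96% of all genes), 18 for BAT over EWAT (16.8%), 1 for EWAT over RWAT (2.85%) and 0 for BAT over IWAT (0.888%), BAT over RWAT (1.79%), IWAT over the mean of EWAT and RWAT (1.9%), IWAT over EWAT (5.94%) and IWAT over RWAT (0.935%). Those for BAT over white included Slc25a4, Slc25a22, Slc25a34 and Slc25a42, higher, where DESeq2 called 3.75% of all genes higher, and Slc25a43, lower, where it called 1.21% lower.

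Before adjustment, more carriers were higher than lower in BAT. At an unadjusted p under 0.05 by edgeR, 14 of 41 members were higher in BAT than in the white mean and 2 were lower, where 12% and 6.18% of all tested genes were. The 28 members with a positive fold change made 68.3% of those tested, against 45.0% of all genes. The median log2 fold change of the members was 0.59, against -0.07 over all genes and 1.56 over the 65 oxidative phosphorylation genes. Without TMM scaling, 23 of 41 members (56.1%) and 21.4% of all genes had a positive fold change, and 9 members were higher and 6 lower (5.36% and 18.6% of all genes). The counts moved with single libraries, and so did the share of all genes. Without BAT 1, 2 members were higher and 1 lower at an unadjusted p under 0.05 (3.36% and 2.03% of all genes), with a median of 0.22. Without BAT 3 the higher ones were 20 (16.2% of all genes), and without RWAT 1 they were 22 (15.4%). Without BAT 1, BAT 2 and RWAT 3, the libraries with the most muscle marker RNA, BAT was left with BAT 3 alone and the median was 0.05. BAT 3 too held more muscle marker RNA (1823 TPM) than any white library but RWAT 3. No member had all 3 BAT libraries above or below all 9 white ones, where 0.475% and 0.757% of all genes did.

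**Figure D2:**
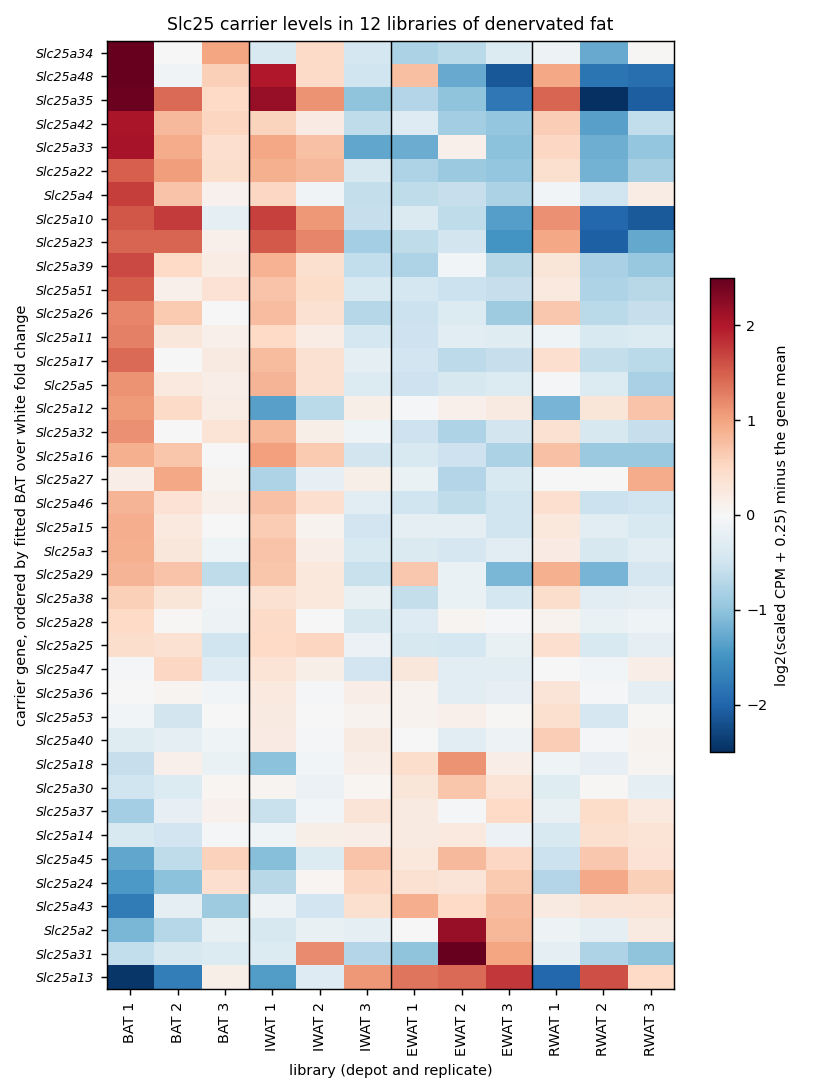
Heat map of 40 of the 41 tested members (rows, ordered by fitted BAT over white fold change) in the 12 libraries (columns), coloured by log2(scaled CPM + 0.25) minus the gene's mean, red above and blue below. Most rows are red in BAT, IWAT 1, IWAT 2 and RWAT 1 and blue in EWAT, IWAT 3, RWAT 2 and RWAT 3, and the bottom rows, among them Slc25a13 and Slc25a24, run the other way.

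Levels also differed within depots. IWAT 1 was the highest of the IWAT libraries for 27 of the 41 members and RWAT 1 was the highest of the RWAT libraries for 27, while BAT 1 was the highest of the BAT libraries for 25. IWAT 3 was the lowest IWAT library for 27 members and BAT 3 the lowest BAT library for 24. In EWAT no library led: EWAT 1, 2 and 3 were highest for 14, 17 and 10 members. On this scaled CPM, BAT 1 held the highest level of all 12 libraries for 21 members and the lowest for 8. Its TMM factor was the smallest, at 0.615, and these counts do not carry over to TPM. By TPM, Slc25a5 was highest in IWAT 1 (379, against 330 in BAT 1) and Slc25a36 was lowest in BAT 1 (19.9), unlike by CPM.

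**Figure D3:**
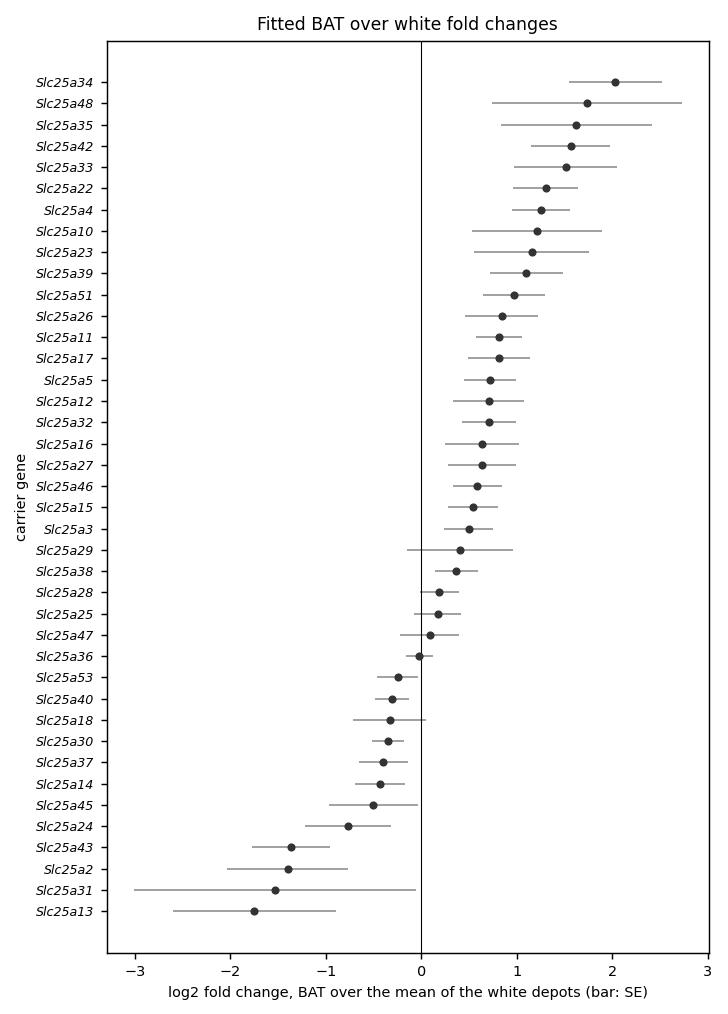
Fitted log2 fold change of 40 of the 41 tested members, BAT over the mean of the white depots (horizontal axis, with the standard error as a bar), with genes down the vertical axis. Values run from -1.75 for Slc25a13 to 2.03 for Slc25a34, and none passed the adjusted threshold.

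The ADP/ATP carriers export ATP made in the matrix in exchange for ADP. Slc25a4, the main isoform of muscle and heart, was 653, 326 and 214 CPM in BAT, 282, 187 and 130.3 in IWAT, 127, 133 and 114 in EWAT, and 189, 141 and 224 in RWAT. The BAT libraries lay above all EWAT libraries, and BAT 3 lay within the range of IWAT and RWAT. On the log2 scale, BAT over white was 1.26 ± 0.31 (SE), adjusted p = 0.119; DESeq2 called it, with 1.31 ± 0.36 (SE), adjusted p = 0.0139. Muscle markers were high in BAT and RWAT 3. They were low in IWAT 1, where Slc25a4 lay above BAT 3 and RWAT 3 by CPM but below both by TPM (137, against 146 and 187). Without BAT 1, BAT 2 and RWAT 3, the edgeR value was 0.42. That left BAT with BAT 3 alone, itself at 1823 TPM of muscle markers. The part of muscle in these values was not tested. Slc25a5, the isoform of most tissues and the carrier with the highest mean TPM, was 589.7, 319.6 and 304 CPM in BAT, 484, 353 and 214 in IWAT, 188, 205 and 212 in EWAT, and 266, 212 and 153 in RWAT. By CPM its BAT libraries lay above the EWAT and the RWAT ones, while IWAT 1 and IWAT 2 lay within the BAT range. By TPM its BAT libraries (330, 298 and 335) overlapped EWAT (320 in EWAT 3) and RWAT (301 in RWAT 2). They lay below IWAT 1 (379) and IWAT 2 (349) on that scale. For Slc25a5, BAT over white was 0.72 ± 0.28 (SE), adjusted p = 0.228. Slc25a31, the testis isoform, was 0.0787, 0.131 and 0.147 CPM in BAT, 0.149, 0.886 and 0.0522 in IWAT, 0, 4.62 and 0.75 in EWAT, and 0.179, 0.045 and 0 in RWAT, and EWAT 2, the library highest for germ cell markers, stood far above the rest. With EWAT 2 and EWAT 3 left out, an alternative added after the data were seen, EWAT kept only EWAT 1, the library highest for epididymis markers (1626 TPM). BAT over white was then 1.17 for Slc25a31, against -1.53 ± 1.48 (SE), adjusted p = 0.534 with all 12 libraries. The 1.17 rests on 1, 2 and 3 counts in BAT and 0 in EWAT 1.

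**Figure D4:**
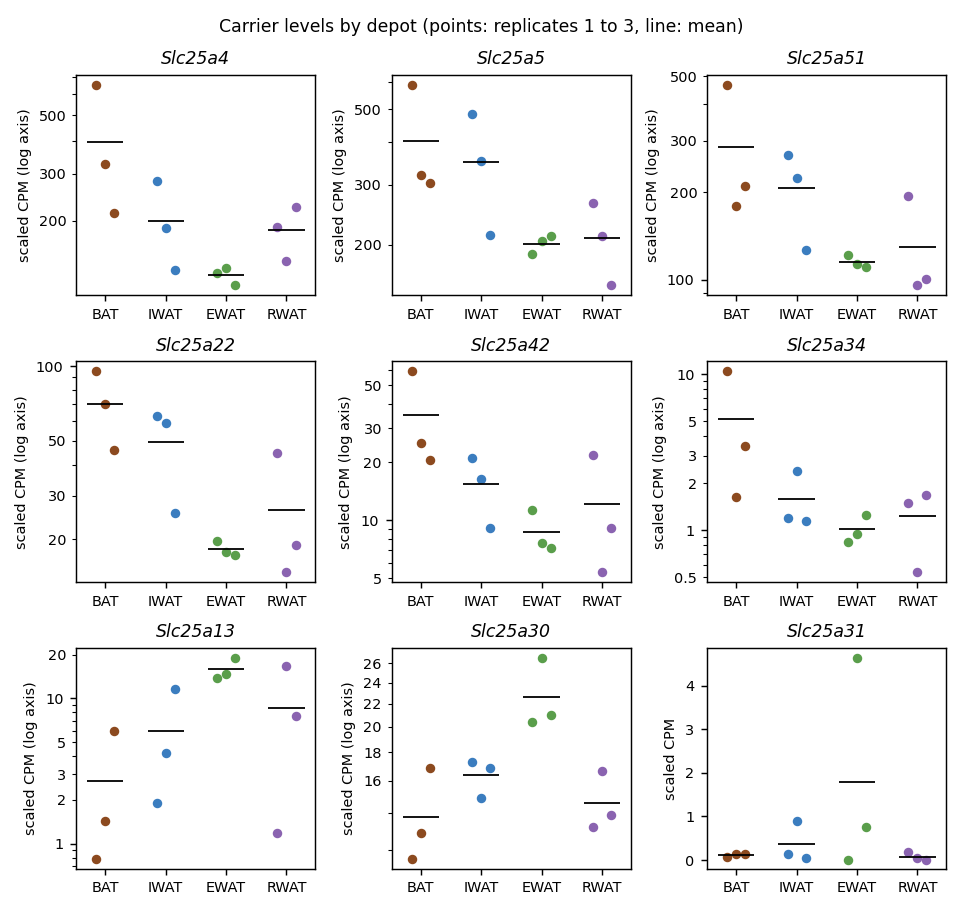
Scaled CPM of 9 members (one panel each, log axis except for Slc25a31) by depot, with the 3 replicates as points and their mean as a line. BAT 1 is the top point for Slc25a4, Slc25a5, Slc25a51, Slc25a22, Slc25a42 and Slc25a34, the EWAT points are close together for Slc25a4, Slc25a5 and Slc25a22, and Slc25a13 is lowest in BAT 1 and RWAT 1 lies near it.

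The promoters of the 3 members below are shown because Slc25a4 and Slc25a5 are the ADP/ATP isoform pair and Slc25a42 is a member that DESeq2 called higher in BAT, like Slc25a4. They were taken from the RefSeq promoter table of build GRCm38.p6, from 250 bases before to 50 after the start of each gene, and capitals mark the motif CCAAT or its reverse ATTGG on either strand. Of the 34 members with a promoter in the table, 52.9% held CCAAT, against 42.3% of all 17491 protein-coding genes with one, and 82.4% held the GC-box letters GGGCGG on either strand, against 49.2%. CACGTG, the E-box letters, was in 17.6% of the members against 8.91%, the NRF1 motif in 5.88% against 7.17%, and TNAAGGTCA (the estrogen-related receptor letters) in none of the 34 against 1.19%. The Slc25a4 promoter held CCAAT at 112 and 56 bases before the start, Slc25a5 held none in the window, and Slc25a42 held 5. A match describes the letters in the window and says nothing of whether a factor binds there.
Slc25a4, chr8:46211013-46211312, minus strand: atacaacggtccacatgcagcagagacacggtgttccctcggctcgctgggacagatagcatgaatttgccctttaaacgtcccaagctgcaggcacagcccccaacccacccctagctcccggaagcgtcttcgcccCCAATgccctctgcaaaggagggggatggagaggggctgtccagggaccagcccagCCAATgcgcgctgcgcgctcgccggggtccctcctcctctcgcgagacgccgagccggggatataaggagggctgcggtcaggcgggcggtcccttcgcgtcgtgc
Slc25a5, chrX:36795347-36795646, plus strand: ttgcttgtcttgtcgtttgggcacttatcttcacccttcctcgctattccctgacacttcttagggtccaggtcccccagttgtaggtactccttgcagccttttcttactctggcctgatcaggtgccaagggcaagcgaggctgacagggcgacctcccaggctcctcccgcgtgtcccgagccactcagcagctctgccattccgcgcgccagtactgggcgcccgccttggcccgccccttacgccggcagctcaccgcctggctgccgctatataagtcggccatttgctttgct
Slc25a42, chr8:70212232-70212531, minus strand: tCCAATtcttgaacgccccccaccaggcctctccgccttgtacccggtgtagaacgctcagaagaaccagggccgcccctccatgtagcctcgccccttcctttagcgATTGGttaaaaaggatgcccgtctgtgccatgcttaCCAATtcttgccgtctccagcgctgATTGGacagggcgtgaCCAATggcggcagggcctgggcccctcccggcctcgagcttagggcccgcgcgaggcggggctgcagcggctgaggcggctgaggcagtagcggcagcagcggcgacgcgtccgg

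Slc25a3, the phosphate carrier that feeds the ATP synthase, was 466, 306 and 236 CPM in BAT, 412, 284 and 194 in IWAT, 196, 189 and 206 in EWAT, and 293, 190.5 and 207 in RWAT, and its TPM was 275, 294 and 267 in BAT, 339.5, 285 and 275 in IWAT, 234, 243 and 316 in EWAT, and 328, 257 and 263 in RWAT. On the CPM scale the BAT libraries, IWAT 1, IWAT 2 and RWAT 1 were the higher ones, and on the TPM scale every pair of depots overlapped. The BAT over white value of Slc25a3 was 0.5 ± 0.26 (SE), adjusted p = 0.315. Without the 3 libraries highest in muscle markers, which left BAT with BAT 3 alone (1823 TPM of those markers), the value was -0.027.

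Calcium-regulated exchangers of ATP-magnesium for phosphate adjust the adenine nucleotide pool of the matrix. Slc25a23 was 67.6, 67.3 and 27 CPM in BAT, 71.6, 57.3 and 13.6 in IWAT, 15.6, 17.7 and 8.6 in EWAT, and 48.4, 5.77 and 9.9 in RWAT and Slc25a24 was 14.4, 19.2 and 52.5 CPM in BAT, 24.3, 40.8 and 57.1 in IWAT, 51.3, 49.4 and 61.8 in EWAT, and 23.5, 76 and 59.8 in RWAT. Slc25a23 was high in BAT 1, BAT 2, IWAT 1, IWAT 2 and RWAT 1, and Slc25a24 was lower in those same libraries than in the other 7. For BAT over white the values were 1.16 ± 0.61 (SE), adjusted p = 0.32 for Slc25a23 and -0.77 ± 0.45 (SE), adjusted p = 0.36 for Slc25a24. Slc25a25 ranged from 16.2 to 33.4 CPM.

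Carriers of dicarboxylates and oxo acids shuttle malate, succinate and 2-oxoglutarate. Slc25a10, the dicarboxylate carrier, was 444, 505 and 127 CPM in BAT, 492, 319.5 and 101 in IWAT, 118, 96.4 and 58.1 in EWAT, and 330.4, 38.3 and 35.1 in RWAT. Among white libraries IWAT 1, IWAT 2 and RWAT 1 lay far above the rest, and BAT 3 fell among the white values. For Slc25a10 the BAT over white value was 1.21 ± 0.68 (SE), adjusted p = 0.342. It took the opposite sign, -0.43, without the 3 libraries highest in muscle markers, which left BAT with BAT 3 alone (1823 TPM of those markers). Slc25a11, the oxoglutarate-malate carrier of the malate-aspartate shuttle, was 171, 86.8 and 78.3 CPM in BAT, 102, 80.7 and 52.3 in IWAT, 49.97, 59.2 and 57.7 in EWAT, and 66.5, 54.5 and 56.6 in RWAT, with all BAT libraries above all EWAT and RWAT libraries. Its log2 fold change for BAT over white was 0.82 ± 0.24 (SE), adjusted p = 0.15. Its gene lies over Rnf167 on the opposite strand, and the strand setting of the counting is not given. In all, 17 of the 44 members lie over a gene on the other strand by their GENCODE gene bounds, introns included. Overlap of exons was not examined. Where exons overlap, the reads of a member and its partner cannot be told apart unless the counting used strand.

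The aspartate and glutamate carriers link the malate-aspartate shuttle to the urea cycle and to glutamate oxidation. Slc25a12 (aralar) was 46.4, 31.1 and 25.1 CPM in BAT, 8.52, 13.9 and 24.4 in IWAT, 21.6, 24.3 and 25.9 in EWAT, and 9.71, 27.4 and 36.5 in RWAT. Slc25a13 (citrin) was 0.787, 1.44 and 5.92 CPM in BAT, 1.89, 4.21 and 11.7 in IWAT, 13.9, 14.7 and 18.9 in EWAT, and 1.19, 16.8 and 7.61 in RWAT. Slc25a12 was lowest in IWAT 1 and RWAT 1, and Slc25a13 was lowest in BAT 1 and RWAT 1. Slc25a22, a glutamate carrier, was 95.1, 70.5 and 45.9 CPM in BAT, 62.9, 59.1 and 25.5 in IWAT, 19.7, 17.7 and 17.2 in EWAT, and 44.7, 14.8 and 19 in RWAT, and all BAT libraries lay above all EWAT and RWAT libraries. It had the smallest adjusted p of the family for BAT over EWAT by edgeR, at a log2 difference of 1.95 ± 0.46 (SE), adjusted p = 0.0638. For BAT over white the values were 0.71 ± 0.37 (SE), adjusted p = 0.322 for Slc25a12, -1.75 ± 0.85 (SE), adjusted p = 0.297 for Slc25a13 and 1.3 ± 0.34 (SE), adjusted p = 0.133 for Slc25a22, and DESeq2 called Slc25a22 with 1.35 ± 0.4 (SE), adjusted p = 0.0265. Slc25a18, the second glutamate carrier, was low throughout, at 0.448 to 2.87 CPM.

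Among carriers of basic amino acids, Slc25a15 exchanges ornithine for citrulline and was 27.2, 17 and 14.2 CPM in BAT, 22.2, 15.1 and 10.2 in IWAT, 12, 12 and 10 in EWAT, and 17.1, 11.7 and 10.9 in RWAT. Slc25a29 was 4.96, 4.51 and 1.61 CPM in BAT, 4.43, 3.21 and 1.72 in IWAT, 4.33, 2.31 and 1.05 in EWAT, and 5.12, 1.04 and 1.9 in RWAT, and each pair of depots overlapped. Slc25a2, the second ornithine carrier, was 0.0787, 0.196 and 0.391 CPM in BAT, 0.299, 0.388 and 0.366 in IWAT, 0.475, 3.04 and 1.05 in EWAT, and 0.417, 0.36 and 0.598 in RWAT, with EWAT 2 the highest and BAT 1 the lowest. BAT over white was 0.54 ± 0.26 (SE), adjusted p = 0.294 for Slc25a15, 0.41 ± 0.56 (SE), adjusted p = 0.659 for Slc25a29 and -1.4 ± 0.63 (SE), adjusted p = 0.275 for Slc25a2. EWAT over RWAT was 1.73 ± 0.66 (SE), adjusted p = 0.434 for Slc25a2, and without EWAT 2 it was 0.73 ± 0.59 (SE), adjusted p = 1.

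Nucleotide and cofactor carriers bring pyrimidine nucleotides, coenzyme A, folate and NAD into the matrix, and 6 of the 7 described here had a positive fold change for BAT over white, 5 of them at an unadjusted p under 0.05 (12% of all genes). Slc25a51, the NAD carrier, was 468, 179 and 209 CPM in BAT, 269, 224 and 126 in IWAT, 122, 113 and 110.3 in EWAT, and 194, 95.9 and 101 in RWAT, and BAT over white was 0.97 ± 0.32 (SE), adjusted p = 0.183. Slc25a42, a coenzyme A carrier named after its values were seen, was 59, 25.1 and 20.6 CPM in BAT, 20.9, 16.4 and 9.09 in IWAT, 11.3, 7.67 and 7.15 in EWAT, and 21.9, 5.41 and 9.13 in RWAT. BAT over white was 1.56 ± 0.42 (SE), adjusted p = 0.135, and DESeq2 called it with 1.62 ± 0.48 (SE), adjusted p = 0.024. Slc25a36, a pyrimidine nucleotide carrier, varied least of the family, between 64.7 and 98.3 CPM, and its value for BAT over white was -0.021 ± 0.14 (SE), adjusted p = 0.934. The other 4 members, Slc25a16, Slc25a17, Slc25a32 and Slc25a33, had log2 fold changes of 0.63, 0.81, 0.71 and 1.51. For BAT over EWAT all 7 were positive, 6 of them at an unadjusted p under 0.05 (15.1% of all genes).

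Glutathione enters mitochondria through Slc25a39 and Slc25a40. Slc25a39 was 324, 146 and 117 CPM in BAT, 188, 137 and 66.9 in IWAT, 60.2, 97.5 and 63.7 in EWAT, and 126, 58.2 and 53.3 in RWAT, and Slc25a40 was 8.9, 9.36 and 10.3 CPM in BAT, 12.8, 10.7 and 12.9 in IWAT, 11.1, 8.99 and 10.2 in EWAT, and 17, 10.7 and 11.8 in RWAT. For Slc25a39 the BAT libraries, IWAT 1, IWAT 2 and RWAT 1 were the 6 highest, whereas Slc25a40 was lowest in BAT 1 and highest in RWAT 1, and its BAT libraries lay below all IWAT and RWAT libraries. The BAT over white values were 1.1 ± 0.38 (SE), adjusted p = 0.195 for Slc25a39 and -0.3 ± 0.18 (SE), adjusted p = 0.357 for Slc25a40.

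Slc25a26 carries S-adenosylmethionine, the methyl donor, and was 20.2, 13.5 and 8.46 CPM in BAT, 14.8, 11.2 and 5.12 in IWAT, 5.8, 6.64 and 4.5 in EWAT, and 13.8, 5.27 and 5.66 in RWAT. Slc25a38, a glycine carrier needed for heme synthesis, was 14.6, 11.8 and 8.9 CPM in BAT, 12.6, 11.5 and 8.3 in IWAT, 6.23, 8.44 and 7 in EWAT, and 13, 7.84 and 8.1 in RWAT. Both were above all EWAT libraries in BAT, with 0.84 ± 0.38 (SE), adjusted p = 0.275 and 0.37 ± 0.23 (SE), adjusted p = 0.373 for BAT over white. The iron importers were mitoferrin 1 (Slc25a37), 15.3, 24.3 and 30.1 CPM in BAT, 18.8, 26.8 and 35.1 in IWAT, 32.5, 27.4 and 39.7 in EWAT, and 24.6, 38.6 and 33.1 in RWAT, and mitoferrin 2 (Slc25a28), 26, 18.5 and 16.8 CPM in BAT, 25.6, 18.2 and 13.8 in IWAT, 14.5, 19.2 and 17.6 in EWAT, and 19.3, 16.1 and 16.9 in RWAT. Slc25a37 was lowest in BAT 1 and IWAT 1, and the depots overlapped for both. For BAT over white they were -0.4 ± 0.25 (SE), adjusted p = 0.388 for Slc25a37 and 0.19 ± 0.2 (SE), adjusted p = 0.574 for Slc25a28.

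Relatives of the uncoupling proteins gave the lowest median of any group of 3 or more, at a log2 fold change of -0.35 for BAT over white. Slc25a30 was 11.6, 12.9 and 16.9 CPM in BAT, 17.3, 14.9 and 16.9 in IWAT, 20.4, 26.6 and 21 in EWAT, and 13.2, 16.7 and 13.9 in RWAT, and the EWAT libraries lay above all BAT, IWAT and RWAT libraries. EWAT over RWAT was 0.63 ± 0.2 (SE), adjusted p = 0.321, and DESeq2 called Slc25a30 there with 0.65 ± 0.2 (SE), adjusted p = 0.0447. Slc25a14 was 1.97, 1.83 and 2.59 CPM in BAT, 2.44, 2.94 and 2.98 in IWAT, 3.11, 3.17 and 2.35 in EWAT, and 1.97, 3.56 and 3.43 in RWAT, and Slc25a27 was 1.65, 3.08 and 1.52 CPM in BAT, 0.747, 1.22 and 1.62 in IWAT, 1.27, 0.771 and 1.05 in EWAT, and 1.43, 1.44 and 2.99 in RWAT. Both were low. Each pair of depots overlapped for Slc25a14, while all BAT and all RWAT libraries lay above the EWAT ones for Slc25a27. The fold changes of BAT over white were -0.35 ± 0.16 (SE), adjusted p = 0.291 for Slc25a30, -0.43 ± 0.26 (SE), adjusted p = 0.366 for Slc25a14 and 0.63 ± 0.36 (SE), adjusted p = 0.346 for Slc25a27. Slc25a46, an outer membrane protein that acts in mitochondrial fusion and fission, was 115, 82.2 and 69 CPM in BAT, 105, 85.3 and 52.4 in IWAT, 45.1, 40.9 and 45.2 in EWAT, and 85.4, 43.7 and 45.1 in RWAT, with BAT over white at 0.59 ± 0.25 (SE), adjusted p = 0.261.

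Members whose substrate is less settled ranged widely. Slc25a34 was 10.4, 1.64 and 3.47 CPM in BAT, 1.2, 2.38 and 1.15 in IWAT, 0.844, 0.942 and 1.25 in EWAT, and 1.49, 0.54 and 1.69 in RWAT, so BAT 2 lay below IWAT 2 and RWAT 3, and BAT over white was 2.03 ± 0.49 (SE), adjusted p = 0.117. Slc25a35 was 66.1, 32.1 and 16.8 CPM in BAT, 54.6, 26.1 and 5.8 in IWAT, 7.07, 5.78 and 3.25 in EWAT, and 32.8, 1.89 and 2.66 in RWAT, with IWAT 1, IWAT 2 and RWAT 1 again the highest white libraries and BAT over white at 1.62 ± 0.79 (SE), adjusted p = 0.297. Slc25a45 was 5.27, 8.51 and 20.01 CPM in BAT, 6.28, 10.5 and 22 in IWAT, 16.1, 23.8 and 19.2 in EWAT, and 9.11, 21.7 and 17.4 in RWAT and ran the other way, with -0.5 ± 0.46 (SE), adjusted p = 0.52. Slc25a48 was 10.8, 1.18 and 2.06 CPM in BAT, 5.88, 1.88 and 0.836 in IWAT, 2.32, 0.385 and 0.1 in EWAT, and 2.74, 0.18 and 0.163 in RWAT. Each pair of depots overlapped, EWAT 3 and RWAT 3 lay under the level of 3 counts, and BAT over white was 1.73 ± 0.99 (SE), adjusted p = 0.351. Slc25a43, named after its values were seen, was 0.315, 1.37 and 0.783 CPM in BAT, 1.5, 1.11 and 2.25 in IWAT, 3.32, 2.44 and 3 in EWAT, and 1.97, 2.12 and 2.17 in RWAT. All BAT libraries lay below all EWAT and RWAT libraries for it, and BAT over white was -1.36 ± 0.41 (SE), adjusted p = 0.15, with DESeq2 at -1.33 ± 0.37 (SE), adjusted p = 0.0158. The estimated counts of Slc25a43 in BAT were low, at 4.48, 20.5 and 16.4. Slc25a47 and Slc25a53 ranged from 0.992 to 2.22 CPM and from 3.60 to 6.73 CPM.

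For 3 members too low to test, a count of 0 allows up to 3 counts, or 0.128 to 0.236 CPM by library, which covers counting error only. Slc25a21, which carries oxoadipate, was 0.0654 to 0.857 CPM. Slc25a41 was at most 0.650 CPM, in EWAT 3, and Slc25a54 was at most 1.67 CPM, in EWAT 2. For both, the 2 highest libraries were EWAT 2 and EWAT 3, the libraries with the most germ cell marker RNA, and the part of those cells in the values was not tested.

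BAT and EWAT, set directly against each other, had the most members apart. Counts of members without overlap, here and below, are by scaled CPM and can differ by TPM. Of the 41 members, 22 had all BAT libraries above all EWAT libraries, where 19.1% of all genes did, and 6 had all BAT libraries below, where 17.8% did. The 6 were Slc25a2, Slc25a13, Slc25a18, Slc25a30, Slc25a43 and Slc25a53. By TPM, Slc25a3 and Slc25a5, counted among the 22, overlapped between BAT and EWAT. Slc25a36 and Slc25a37, which overlapped by CPM, were by TPM lower in all BAT libraries than in EWAT. At an unadjusted p under 0.05 by edgeR, 20 members were higher and 5 lower in BAT (15.1% and 12.5% of all genes). Without TMM scaling 8 were higher and 7 lower (6.64% and 28.3%), and with scaling to the oxidative phosphorylation genes 0 were higher and 21 lower (1.08% and 68.8%). DESeq2 called 14 higher and 4 lower in BAT, where it called 9.89% and 6.87% of all genes. By edgeR the higher ones at an unadjusted p under 0.05 were 8 without BAT 1 (8.05% of all genes), 13 without EWAT 1 (11.2%) and 11 without EWAT 3 (9.2%). The comparison shares the BAT libraries with that of BAT over white.

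Between BAT and IWAT, Slc25a12 had all BAT libraries above all IWAT libraries, where 3.61% of genes did, and Slc25a40 had all below, where 3.22% did. At an unadjusted p under 0.05, 3 members were higher and 0 lower (2.52% and 1.33% of genes). The 3 became 0 without BAT 1 (1.47% of genes), 5 without BAT 3 (4.46%) and 1 without any single IWAT library (1.71% to 2.39%). Between BAT and RWAT, Slc25a5, Slc25a11 and Slc25a22 had all BAT libraries above (7.42% of genes) and Slc25a40 and Slc25a43 all below (9.33%), and 10 members were higher and 1 lower at an unadjusted p under 0.05 (8.31% and 6.54%). For BAT over RWAT the higher ones were 1 without BAT 1 (2.26% of genes), 3 without RWAT 2 (3.18%), 4 without RWAT 3 (5.37%) and 19 without RWAT 1 (14.2%).

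Within white fat, IWAT was set against EWAT and RWAT together. At an unadjusted p under 0.05, 6 of 41 members were higher in IWAT than in the mean of EWAT and RWAT and 0 were lower (7.19% and 4.33% of genes). They included Slc25a22 (1.17 ± 0.38 (SE), adjusted p = 0.381), Slc25a5, Slc25a46, Slc25a32 and Slc25a23, and their IWAT libraries overlapped the EWAT or RWAT ones. The 6 became 0 without IWAT 1 (1.96% of genes), 1 without IWAT 2 (2.13%), 17 without IWAT 3 (13%) and 18 without RWAT 1 (12.7%). Without EWAT 1, 2 or 3, RWAT 2 or RWAT 3 they were 1 to 3 (4.18% to 5.49%). No member had all IWAT libraries above, or below, all EWAT and RWAT libraries (0.924% and 1.67% of genes). Between IWAT and EWAT, 7 members had all IWAT libraries above (11.8%) and Slc25a2, Slc25a13, Slc25a30 and Slc25a43 all below (13.1%), and 7 were higher and 3 lower at an unadjusted p under 0.05 (8.85% and 7.36%). With single libraries left out the 7 became 1 to 18, with 1 without EWAT 2 (5.16% of genes) or IWAT 1 (3.53%), 2 without EWAT 1 (5.72%), 3 without EWAT 3 (4.32%) or IWAT 2 (4.37%), 13 without RWAT 1 (10.6%) and 18 without IWAT 3 (13.5%). Between IWAT and RWAT, 0 members passed it in either direction (1.57% and 2.85%), by edgeR, by DESeq2 and by limma-voom, and no member was free of overlap (2.71% and 3.97%). By edgeR 13 were higher for IWAT over RWAT without RWAT 1 (8.74% of genes), 3 without IWAT 3 (5.45%), 1 without BAT 1 (1.9%) and 9 with the replicate block (4.95%).

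EWAT was last set against RWAT. Slc25a18, Slc25a30 and Slc25a43 had all EWAT libraries above all RWAT libraries (8.21% of genes), and Slc25a4 and Slc25a27 had all below (6.66%). Slc25a30, Slc25a31 and Slc25a2 were higher at an unadjusted p under 0.05 and 0 were lower (4.89% and 4.15% of genes). The count fell to 1 without EWAT 2 (2.92% of genes) or RWAT 2 (6.38%), and to 0 without EWAT 2 and EWAT 3 (2.91%), the libraries with the most germ cell marker RNA; EWAT 2 was the highest of all libraries for Slc25a2 and Slc25a31. Without EWAT 2 and EWAT 3, EWAT was left with EWAT 1 alone, the library highest for epididymis markers. EWAT over RWAT was then 0.017 for Slc25a2 and -3.52 for Slc25a31, against 4.54 ± 1.62 (SE), adjusted p = 0.387 for Slc25a31 with them. The -3.52 sets 0 counts in EWAT 1 against 3, 1 and 0 counts in RWAT. Slc25a35 took the opposite sign without RWAT 1, where EWAT over RWAT was 1.23 ± 0.86 (SE), adjusted p = 0.759, against -1.21 ± 1.07 (SE), adjusted p = 0.802 with it.

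A share within a pair does not depend on library scaling, and 10 pairs were compared between the 3 BAT and the 9 white libraries by an exact permutation test, two-sided, over 220 splits, whose smallest possible p is 0.00455. Slc25a4 made up 41.3, 38.8 and 30.4 in BAT, 26.6, 24.8 and 27.6 in IWAT, 29.2, 28.6 and 25.1 in EWAT, and 30.9, 29.5 and 47.9 in RWAT, in percent of the summed TPM of Slc25a4 and Slc25a5. RWAT 3 was the highest library, and the exact permutation p was 0.127, adjusted 0.212. Slc25a12 made up 99.2, 98 and 87.6 in BAT, 90.4, 84.9 and 79.4 in IWAT, 77, 77.9 and 72.4 in EWAT, and 93.4, 78.1 and 88.5 in RWAT, in percent of its sum with Slc25a13, with an exact permutation p of 0.0318, adjusted 0.159. Slc25a33 made up 33.3, 17.2 and 14.1 in BAT, 17.6, 16.7 and 3.55 in IWAT, 3.89, 12.3 and 5.74 in EWAT, and 11.7, 4.62 and 6.38 in RWAT, in percent of its sum with Slc25a36, at an exact permutation p of 0.0227, adjusted 0.159. None of the 10 pairs passed after adjustment over the pairs, and adjusted p-values ran from 0.159 to 0.591.

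**Figure D5:**
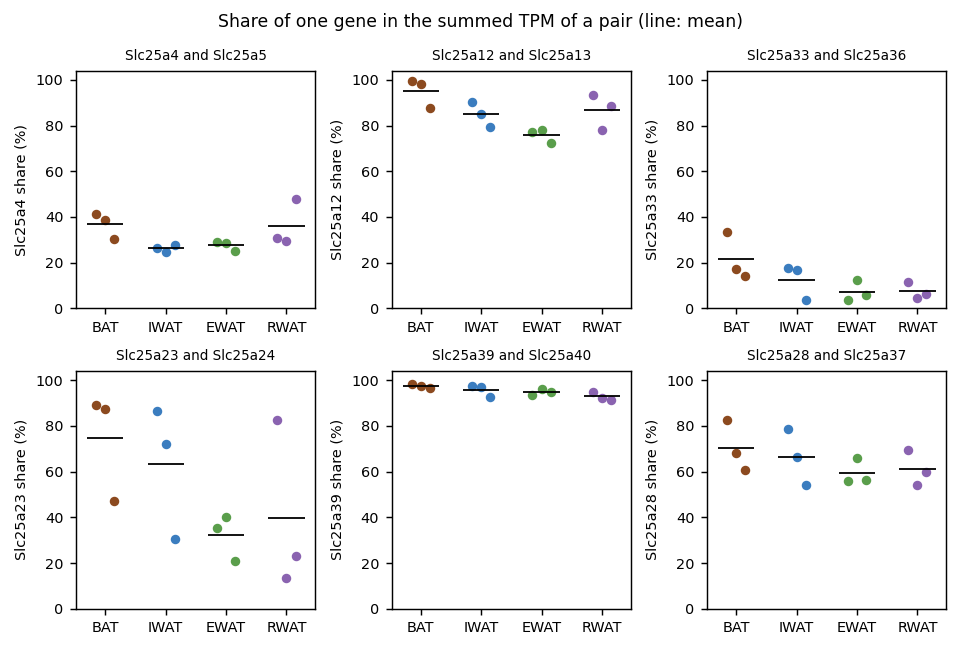
Share of the first gene of a pair in the summed TPM of both genes (vertical axis, percent, from 0) by depot, with replicates as points and the mean as a line, for 6 of the 10 pairs. The Slc25a12 share is 87.6% to 99.2% in BAT and 72.4% to 93.4% in the white libraries, and the Slc25a23 share spreads from 13.3% to 89.0%.

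The other mitochondrial transport genes, a list of 31, gave 1 call for BAT over white by edgeR, which called 0.0992% of all genes. It was Ucp1, at 2962, 32.2 and 702 CPM in BAT, 47.6, 129.8 and 21.5 in IWAT, 0, 0.0857 and 0.05 in EWAT, and 12.4, 1.31 and 0.163 in RWAT, at a log2 difference of 8.92 ± 1.25 (SE), adjusted p = 0.0356. On this scale BAT 2 lay above IWAT 3 for Ucp1, unlike by TPM, and below IWAT 1 and IWAT 2. The Ucp1 call was lost with limma-voom (adjusted p = 0.164). By edgeR it was also lost without BAT 1, BAT 3, RWAT 2 or any single EWAT or IWAT library (adjusted p = 0.0583 to 0.189). DESeq2 called 7 of the 31, Ucp1 and Slc25a20 among them, where it called 4.96% of all genes. By edgeR the 3 left-out members were not called: BAT over white was 2.32 ± 0.82 (SE), adjusted p = 0.201 for Slc25a1, the citrate carrier, 1.52 ± 0.37 (SE), adjusted p = 0.119 for Slc25a20, the carnitine-acylcarnitine carrier, and 1.0 ± 0.43 (SE), adjusted p = 0.262 for Slc25a44, a carrier of branched-chain amino acids. Of the 31, 18 were higher and 1 lower at an unadjusted p under 0.05 (12% and 6.18% of all genes), with 4 higher without BAT 1 (3.36%).

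Several members neighbour each other with no protein-coding gene between them in the annotation. By their GENCODE bounds, Slc25a29 and Slc25a47 lie head to head on chromosome 12, with 162 bases between them. Their RefSeq promoter windows lie further apart, at 108835827 to 108836126 for Slc25a29 and 108850879 to 108851178 for Slc25a47. Slc25a43 and Slc25a5 lie 18448 bases apart on the X chromosome. By scaled CPM, BAT 1 was the highest of the 12 libraries for Slc25a5 and the lowest for Slc25a43. Slc25a41 lies 2056 bases from Slc25a23 on chromosome 17, and Slc25a54 lies 6461 bases from Slc25a24 on chromosome 3.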

How the data were processed

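RNA was sequenced from 12 libraries of denervated mouse fat, 3 per depot. Total RNA was freed of ribosomal RNA and read from one end over 75 bases, per the labels' protocols. Per the submitters' processing notes, tools were RSEM 1.3.0, Trimmomatic 0.36 and DESeq2 1.10.1, on build GRCm38.p4; annotation and strand setting: not given in the sources used here. What the authors deposited are expected counts of RSEM, estimated and without normalisation. The TPM in the same deposited files is also theirs, and a posterior standard deviation stands beside each count per the file headers. RSEM divides reads that match several genes. The posterior standard deviation was at most 0.35% of the count for Slc25a5, 19.6% for the low Slc25a43 and 28.2% for the low Slc25a48. No deposited p-value or fold change was used.

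Expected counts were rounded, filtered with filterByExpr (19154 genes left) and TMM-scaled (factors 0.615 to 1.23). A single fit over the 12 libraries with edgeR 4.0.16 (R 4.3.3) gave the quasi-likelihood tests of 8 comparisons, with Benjamini-Hochberg adjustment over all genes tested and a threshold of 0.05. The SE of a fold change is its size divided by the square root of the test's F. White depots were averaged over fitted log2 levels. TPM served to compare levels between genes and for the pair shares, which were compared with an exact permutation test (scipy 1.17.1). DESeq2 1.42.0, limma-voom (limma 3.58.1), other scalings, filters, a replicate block and left-out libraries were alternatives. The tests were tried on simulated data, with noise drawn independently in each library and without the differences in composition seen here. Changes were put only into genes that were not among the lowest in level. For BAT over white they called 12% of simulated 2-fold and 66% of 4-fold changes. The shares were 6% and 72% for IWAT over the mean of EWAT and RWAT, and 8% and 56% for EWAT over RWAT. Under these settings most true 2-fold changes went uncalled, and recovery for members of low level was not tested. No libraries held identical values, and none of a depot agreed within sampling noise. Library totals of 15699912 to 25633413 counts limit the precision at low counts.

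The members, role groups and marker lists were chosen with earlier results of these data known. Values in every library are given, by rule, for the 2 members of highest mean TPM in each role group and for the 3 highest and 3 lowest fold changes in each main comparison; the rule names 30 members, of which 1 is counted in the totals and otherwise not reported here, and others with their values in full were chosen after those were seen. Promoters came from RefSeq (GRCm38.p6), overlaps and neighbours from GENCODE M21.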

Additional observations from a re-analysis of the deposited data

How the results depend on the processing

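edgeR called 0 members in all 8 comparisons, and this also held with limma-voom, without TMM, with RLE scaling and with both other filters. DESeq2 called 6 members for BAT over white, 18 for BAT over EWAT and 1 for EWAT over RWAT. The replicate block gave 4 for BAT over white and 21 for BAT over EWAT, where it called 3.39% and 18.5% of all genes. Same-numbered libraries' deviations from their depot means correlated at -0.347 to 0.677, and 10 of 18 pairs exceeded 0.1. Of the 12 libraries, 7 correlated best with a library of the same number. These values cannot decide whether replicate numbers pair the samples, and the fit reported left the numbers out. With single libraries left out, the counts were 0 to 3 for BAT over white (3 without RWAT 1, where 1.27% of all genes were called), 0 to 6 for BAT over EWAT (6 without BAT 3, 5 without RWAT 1 and 1 without EWAT 1, with 9.7%, 6.86% and 5.62% of all genes) and 0 to 1 for IWAT over EWAT (1 without EWAT 1, with 5.32%). Scaling to the oxidative phosphorylation genes gave 16 for BAT over EWAT, all lower in BAT, where 56.4% of all genes were called lower; it moved the median of all genes for BAT over white to -1.43, against -0.07 in the fit reported.

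That scaling also turned the sign of BAT over white for Slc25a15 (-0.90), Slc25a29 (-0.94), Slc25a3 (-0.95), Slc25a5 (-0.75), Slc25a4 (-0.35), Slc25a11 (-0.72), Slc25a22 (-0.057), Slc25a12 (-0.999), Slc25a51 (-0.55), Slc25a23 (-0.025), Slc25a38 (-1.03), Slc25a26 (-0.55), Slc25a28 (-1.23), Slc25a39 (-0.41), Slc25a46 (-0.80), Slc25a27 (-0.78), Slc25a16 (-0.65), Slc25a17 (-0.72), Slc25a32 (-0.77), Slc25a25 (-1.22), Slc25a47 (-1.20), Slc25a20 (-0.23) and Slc25a44 (-0.45), and of BAT over EWAT for Slc25a22 (-0.022), and left 7 members positive of 41. Without TMM, 23 of 41 were positive (56.1%, against 21.4% of all genes), the median of all genes was -0.46, and Slc25a29 (-0.012), Slc25a38 (-0.060), Slc25a28 (-0.24), Slc25a25 (-0.26) and Slc25a47 (-0.29) changed sign. Without BAT 1, BAT 2 and RWAT 3, which left BAT with BAT 3 alone, the sign of BAT over white changed for Slc25a29 (-0.84), Slc25a3 (-0.027), Slc25a10 (-0.43), Slc25a24 (0.14), Slc25a38 (-0.059), Slc25a28 (-0.091), Slc25a45 (0.35), Slc25a16 (-0.021), Slc25a25 (-0.51) and Slc25a47 (-0.37). Slc25a36 lay near 0, at 0.016 with DESeq2 and with RLE scaling. Without the 2 germ-cell-high EWAT libraries, which left 1 EWAT library, Slc25a31 was 1.17 for BAT over white and -3.52 for EWAT over RWAT. With single libraries left out, Slc25a28 ranged from -0.020 to 0.38, Slc25a36 from -0.059 to 0.078 and Slc25a47 from -0.23 to 0.36 for BAT over white, and for EWAT over RWAT Slc25a35 ranged from -1.73 to 1.23. The cause of these changes was not tested. The other fold changes printed for BAT over white, and the other Slc25a2, Slc25a30, Slc25a31 and Slc25a22 values printed, kept their sign under these alternatives. Depth limits Slc25a31, Slc25a2, Slc25a41, Slc25a54, Slc25a21 and Slc25a48, which lay at or under the level of 3 counts in some libraries.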
